A study of Mus musculus with 30 samples.

Results

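Between dawn and the early night, 10 transcripts differed past the threshold in mouse tissue enriched for retinal pigment epithelium (RPE). Genes of the circadian clock made up 5 of them. The comparison used 10 of 30 RNA-seq libraries: the 5 samples labelled 7h, which is zeitgeber time (ZT) 0, against the 5 labelled 21h, which is ZT14. These 10 were found among 16741 tested genes, of which 26 were clock genes. Arntl, which encodes the clock activator BMAL1, was lower at ZT14, while Per2, Per3, Nr1d2 and Dbp, which encode repressors and an output factor of the clock, were higher. The other genes past the threshold were Tspan4, Tsc22d3, Prosc and Angptl7, which were higher at ZT14, and the mitotic kinase gene Pbk, which was lower. The spread was estimated from all 30 libraries, and in a fit to the 10 libraries alone only Tsc22d3 passed.

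The RPE is a single layer of pigmented cells behind the photoreceptors. It recycles retinoids for vision, engulfs the tips of rod outer segments in a burst after light onset, and moves ions, water and metabolites between retina and choroid. In the circadian clock of most mammalian cells, BMAL1 and CLOCK activate the Period and Cryptochrome genes, whose proteins later block that activation. A second loop of REV-ERB repressors and ROR activators sets the level of Arntl itself, and output factors such as DBP pass the rhythm on to other genes.

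All mice were wild-type C57BL/6 males of 10 to 13 weeks that gave 1 eye each, and the groups were defined by the time of day at which the tissue was taken. Left eyes made up 3 of 5 samples at ZT0 and 4 of 5 at ZT14. The labels do not give the hour of lights off. The front of the eye and the retina had been removed, the eyecup was kept in RNAlater, and RPE clumps were lifted from the choroid with forceps, so that the material was enriched tissue and not sorted cells. Because each library came from a separate mouse, p-values reflect the spread between animals.

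Expression was read from the deposited FPKM values, fragment counts scaled for transcript length and for the number of mapped fragments. An estimated 12.4 to 21.1 M reads stood behind the 10 libraries. Genes above 0 numbered 17035 to 19374 in 9 of the libraries and 12754 in ZT14 replicate 3. That library also gave 0 for 557 genes with a median of 10 FPKM or more elsewhere, where each of the other 9 gave 0 for 1 to 19 of such genes. A 0 there may be a failed estimate, so genes that these Results describe and that were listed at 0 are given library by library. The closing sections also name genes with zeros, such as Pde6h and Bfsp1, without all their values. List counts or medians that ZT14 replicate 3 moves by over 1.5 times are given with and without it.

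The RPE identity of the samples was read from markers. The summed level of the 12 RPE markers ran from 5938 to 10715 FPKM at ZT0 and from 9020 to 13319 FPKM at ZT14. Markers of neighbouring tissues were abundant too and uneven. The 18 markers of surface epithelium, the cover of cornea and conjunctiva, summed to 11714 to 23644 FPKM at ZT0 and 4215 to 16299 FPKM at ZT14. The 13 rod markers summed to 101 to 13474 FPKM at ZT0 and 268 to 3726 FPKM at ZT14, and the 13 skeletal muscle markers to 3795 to 7252 and 4389 to 19986 FPKM. No gene of the marker lists was listed at 0 in all 10 libraries. In such bulk samples, fewer cells of a type and less RNA per cell cannot be told apart.

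With the 10 genes past the threshold, 0.0597% of those tested were called at an adjusted p below 0.05 (limma on log2(FPKM + 1), Benjamini-Hochberg over all 16741 genes). The 8 higher genes were 0.0478% and the 2 lower genes 0.0119%. At p below 0.05 before adjustment there were 722 higher genes (4.31%) and 1023 lower genes (6.11%). The 5 values at ZT14 lay wholly above the 5 at ZT0 for 124 genes (0.741%) and wholly below for 105 genes (0.627%). These shares over all genes are the background for the list counts below. In the fit without ZT14 replicate 3, 516 genes were higher and 520 lower at p below 0.05 before adjustment, and 195 lay wholly above and 151 wholly below, with 4 night values to clear in place of 5. Over the other fits without 1 library, 562 to 900 genes were higher and 764 to 1351 lower. The median difference over all genes was -0.06 on the log2 scale and the median standard error 0.39, while the smallest difference among the called genes, that of Tspan4, was 1.32 ± 0.20.

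**Figure D1:**
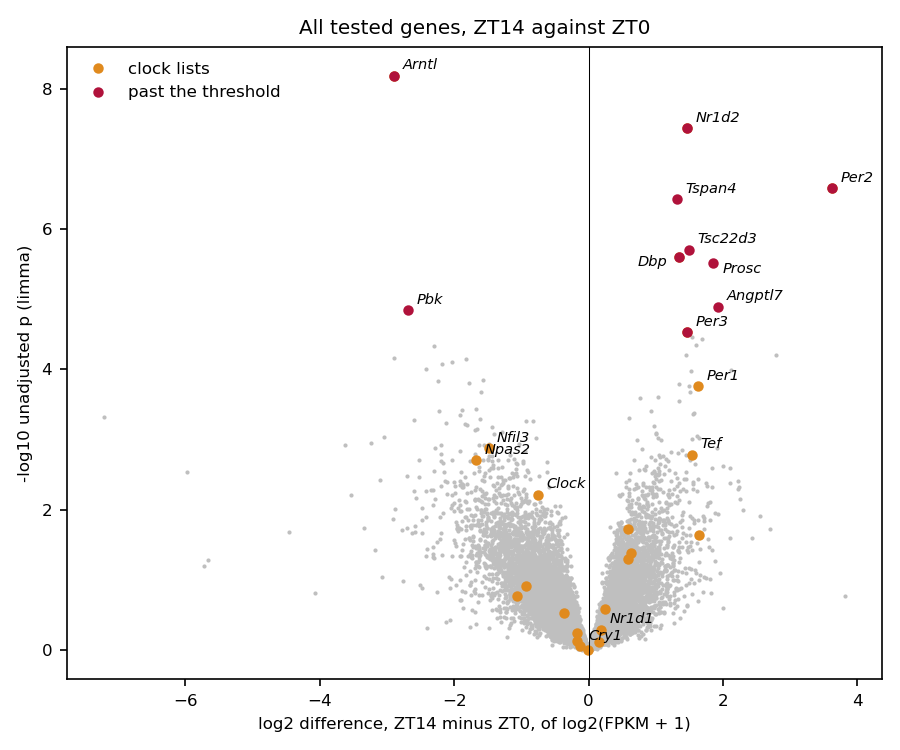
Each point is 1 of the 16741 tested genes, with the log2 difference of ZT14 minus ZT0 on the x axis and -log10 of the unadjusted limma p on the y axis. Orange points are 24 clock genes and red points the 10 genes past the threshold, of which Arntl has the smallest p and Per2 the largest difference.

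Among the 26 tested clock genes, 4 were called higher and 1 lower at ZT14, or 5 of the 10 calls. At p below 0.05 before adjustment, 9 were higher and 4 lower (4.31% and 6.11% of all genes). The median difference of the clock genes was 0.17, taken over members that differed in both directions and members with differences near 0.

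The activators stood lower at ZT14. Arntl (ENSMUSG00000055116, chromosome 7, start 113207465, end 113314126, plus strand in mm10) measured 11.3, 22.4, 15.8, 22.7 and 25.4 FPKM at ZT0 and 5.22, 0.905, 0, 1.73 and 3.23 FPKM at ZT14. The highest ZT14 value lay below the lowest ZT0 value, and 1 night library listed the gene at 0. Arntl fell by 2.89 ± 0.35 on the log2(FPKM + 1) scale (estimate ± SE, n = 5 per group, adjusted p = 1.10e-04, limma). Without ZT14 replicate 3, the library with the 0, it fell by 2.53 ± 0.31 (adjusted p = 1.82e-04). Npas2, a paralog of Clock that also pairs with BMAL1, measured 10.1, 4.68, 3.42, 3.03 and 3.22 FPKM at ZT0 and 0, 2.61, 0, 0.0119 and 2.99 FPKM at ZT14. Its groups did not overlap either, but the difference of -1.67 ± 0.49 did not pass over all genes (adjusted p = 0.306). Clock itself measured 33.4, 17.8, 33.6, 26.1 and 16.1 FPKM at ZT0 and 19.8, 11.8, 12.7, 13.7 and 13.6 FPKM at ZT14, with a difference of -0.75 ± 0.25 (adjusted p = 0.346) and groups that overlapped. Arntl2, a second BMAL gene, measured 1.41, 4.92, 5.20, 1.98 and 3.14 FPKM at ZT0 and 3.13, 0.959, 0, 0.254 and 1.69 FPKM at ZT14 (difference -1.06 ± 0.75). All 4 activators thus had differences below 0, with 1 call and 3 at p below 0.05 before adjustment.

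The Period genes, whose proteins form the repressing complex, stood higher at ZT14. Per2 (ENSMUSG00000055866, chromosome 1, start 91415982, end 91459324, minus strand) measured 0.761, 2.22, 2.74, 1.58 and 2.23 FPKM at ZT0 and 77.9, 117, 14.7, 32.8 and 9.11 FPKM at ZT14. Every night mouse exceeded every dawn mouse, yet the night values spread over more than a factor of 10, from 9.11 to 117 FPKM. Per2 rose by 3.62 ± 0.54 on the log2 scale (adjusted p = 0.00145), the largest difference among the 10 called genes. Per3 (ENSMUSG00000028957, chromosome 4, start 151003652, end 151044665, minus strand) measured 5.86, 3.25, 2.75, 6.80 and 13.9 FPKM at ZT0 and 18.8, 17.7, 17.7, 17.1 and 15.6 FPKM at ZT14. Its night values were tight, while ZT0 replicate 5 came close to them. Per3 rose by 1.47 ± 0.30 (adjusted p = 0.049), next to the threshold, and the call was lost on leaving out any 1 library except ZT0 replicate 5 (adjusted p from 0.068 without ZT0 replicate 4 to 0.205 without ZT0 replicate 3). Camta1 overlaps Per3 on the same strand, with means of 27.3 FPKM at ZT0 and 14.0 FPKM at ZT14. How reads lying on both genes were assigned is uncertain. Per1 measured 3.52, 1.54, 6.09, 5.48 and 7.55 FPKM at ZT0 and 18.8, 12.9, 7.33, 34.6 and 14.6 FPKM at ZT14. Only the lowest night value reached into the dawn range. The difference for Per1 was 1.63 ± 0.38 (adjusted p = 0.1), close to that of Per3 with a wider error. Without ZT14 replicate 3, its lowest night library, the difference was 1.88 ± 0.37 (adjusted p = 0.0541).

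The Cryptochrome genes, partners of the Period proteins, did not pass. Cry2 ranged from 5.84 to 13.4 FPKM at ZT0 and 10.4 to 21.7 FPKM at ZT14, with a difference of 0.63 ± 0.29 (adjusted p = 0.47). Cry1 varied more within groups than between them, from 9.48 to 66.0 FPKM at ZT0 and 14.8 to 69.7 FPKM at ZT14, and its difference of -0.13 ± 0.84 had the largest standard error of the clock genes. At this error a change of Cry1 was not detectable.

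**Figure D2:**
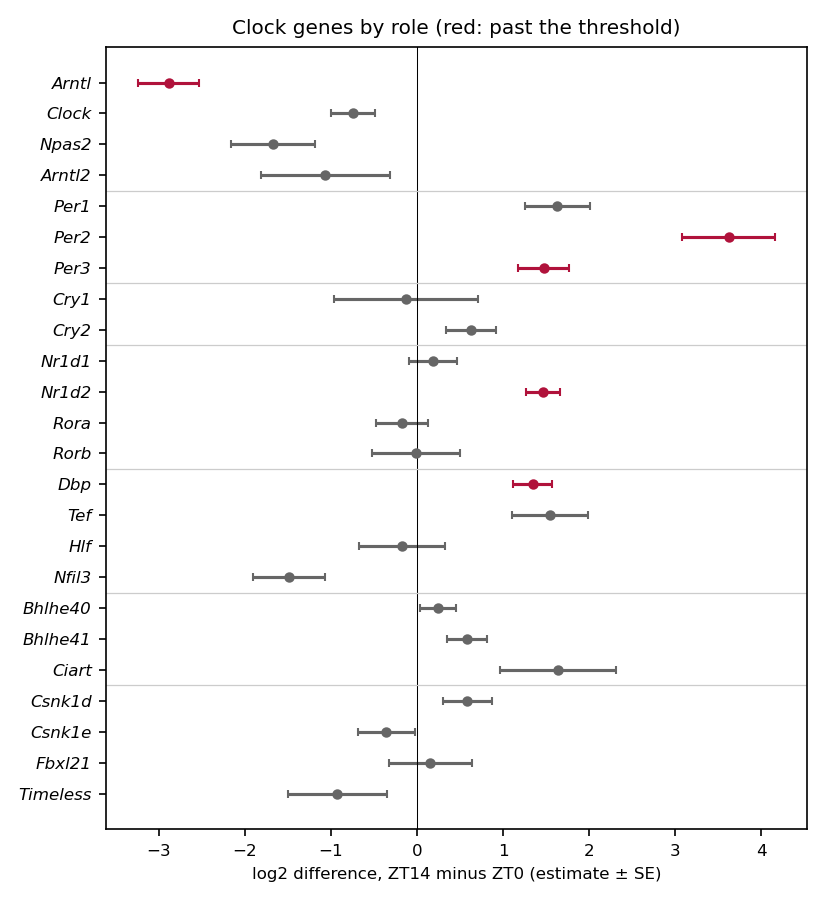
Log2 difference of ZT14 minus ZT0 with its standard error for 24 of the 26 clock genes, in groups by role. The groups are activators, Period genes, Cryptochromes, REV-ERB and ROR receptors, PAR bZIP factors with Nfil3, DEC and CIART repressors, and kinases or turnover factors with Timeless. The 5 red genes passed the threshold over all genes.

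The second loop split. Nr1d2 (ENSMUSG00000021775, chromosome 14, start 18204054, end 18239127, minus strand), which encodes the repressor REV-ERB beta, measured 14.5, 16.5, 13.3, 18.7 and 27.8 FPKM at ZT0 and 70.5, 37.4, 45.1, 50.5 and 52.7 FPKM at ZT14. The groups did not overlap, with the lowest night value above the highest dawn value. Nr1d2 rose by 1.46 ± 0.20 (adjusted p = 3.04e-04), and kept its call without ZT14 replicate 3 (adjusted p = 5.96e-04). Its paralog Nr1d1, which encodes REV-ERB alpha, measured 12.3, 21.1, 19.3, 21.5 and 27.3 FPKM at ZT0 and 29.3, 22.5, 21.3, 33.7 and 12.2 FPKM at ZT14. Those groups overlapped throughout, and the difference was 0.19 ± 0.28 (adjusted p = 0.84). Whether the difference of Nr1d2 exceeded that of Nr1d1 was not tested. The ROR genes Rora and Rorb, which encode activators that compete with REV-ERB, had differences of -0.18 ± 0.30 and -0.01 ± 0.51, both smaller than their errors.

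Of the 4 output factors tested, 1 was called. Dbp (ENSMUSG00000059824, chromosome 7, start 45705088, end 45710203, plus strand), which encodes a PAR bZIP activator that binds D-boxes, measured 38.2, 68.7, 40.9, 40.2 and 50.8 FPKM at ZT0 and 118, 129, 81.6, 184 and 107 FPKM at ZT14. No dawn value reached the night range. Dbp rose by 1.34 ± 0.23 (adjusted p = 0.00707). Sphk2 overlaps Dbp on the opposite strand, with means of 22.5 and 29.4 FPKM. Tef, a second PAR bZIP gene, measured 23.8, 113, 34.8, 88.3 and 69.4 FPKM at ZT0 and 87.5, 97.2, 365, 237 and 174 FPKM at ZT14, with 1 very high library (replicate 3) and overlap between the groups. Its difference of 1.54 ± 0.44 did not pass (adjusted p = 0.306). Hlf, the third, ranged from 26.7 to 121 FPKM at ZT0 and 24.1 to 128 FPKM at ZT14 and differed by -0.17 ± 0.50. Nfil3, a repressor that binds the same sites as DBP, measured 6.67, 10.5, 16.0, 9.00 and 10.6 FPKM at ZT0 and 3.39, 7.09, 0, 5.23 and 3.58 FPKM at ZT14, a difference of -1.49 ± 0.42 (adjusted p = 0.292). It was at p below 0.05 before adjustment in the opposite direction to Dbp and Tef.

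Among the other repressors, Ciart measured 1.74, 0, 0, 3.45 and 4.29 FPKM at ZT0 and 7.28, 7.10, 0.932, 10.3 and 11.8 FPKM at ZT14 and had a difference of 1.64 ± 0.68 (adjusted p = 0.428). Bhlhe41 and Bhlhe40, the DEC genes, had 0.58 ± 0.23 and 0.24 ± 0.21. Of the genes for clock kinases and turnover, Csnk1d differed by 0.58 ± 0.29, with ZT14 replicate 3 at 233 FPKM against 43.2 to 75.9 FPKM in the other night libraries. Csnk1e differed by -0.36 ± 0.33 and Fbxl21 by 0.15 ± 0.48. Timeless, counted in the same list though neither a kinase nor a turnover gene, differed by -0.93 ± 0.58. Fbxl21 measured 0.135, 0, 1.56, 2.05 and 0 FPKM at ZT0 and 2.09, 0.715, 0, 1.86 and 0 FPKM at ZT14, with 2 libraries of each group listed at 0. Timeless measured 10.3, 6.29, 8.02, 3.12 and 3.67 FPKM at ZT0 and 14.0, 2.00, 0, 4.02 and 1.55 FPKM at ZT14, with the highest and the lowest value both at night. None of these 7 genes passed over all genes.

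**Figure D3:**
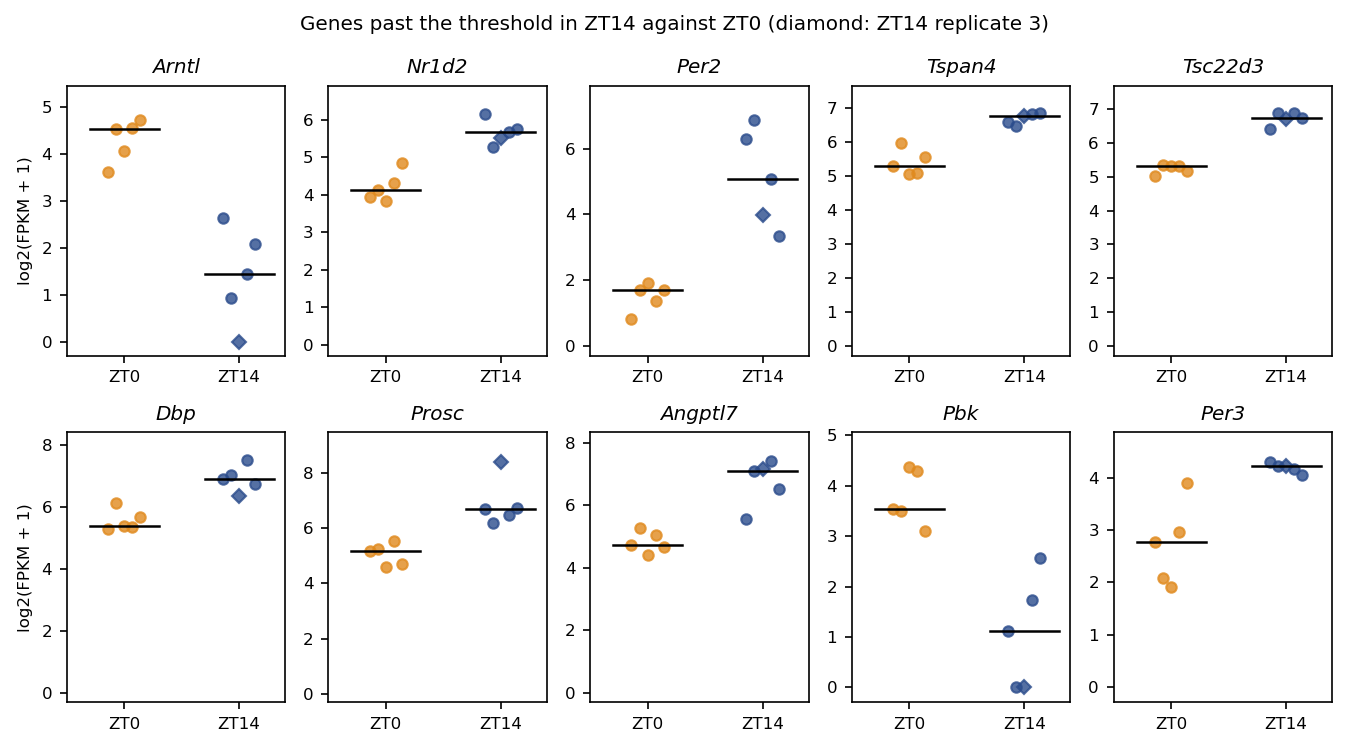
Level of each of the 10 genes past the threshold as log2(FPKM + 1), 1 point per mouse, with the group median as a line and ZT14 replicate 3 as a diamond. In all 10 panels the 5 ZT0 points and the 5 ZT14 points do not overlap.

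Sequence upstream of the called genes was read from RefSeq promoters (GRCm38.p6, 250 bases before to 50 after each start), in which 7 of the 10 genes had an entry and Per2, Prosc and Pbk had none. The 4 windows printed are those of 3 called clock genes and Tspan4 that hold a motif read by clock factors. Capitals mark the motif: the D-box TTATGTAA in Per3, the REV-ERB and ROR core motif AGGTCA in Arntl and Nr1d2, and the E-box CACGTG, the BMAL1 and CLOCK motif, in Tspan4. They lie at chr4:151044616-151044915, minus strand, at chr7:113207261-113207560, plus strand (the second of 2 listed starts), at chr14:18239057-18239356, minus strand and at chr7:141476130-141476429, plus strand (the second of 2), each given 5′ to 3′ on its own strand.
Per3: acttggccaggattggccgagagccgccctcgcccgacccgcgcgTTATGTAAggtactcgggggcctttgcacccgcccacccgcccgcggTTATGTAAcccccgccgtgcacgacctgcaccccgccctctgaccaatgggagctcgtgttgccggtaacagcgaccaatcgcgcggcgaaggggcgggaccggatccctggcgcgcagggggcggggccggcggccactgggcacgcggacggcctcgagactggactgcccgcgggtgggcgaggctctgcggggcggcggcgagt
Arntl: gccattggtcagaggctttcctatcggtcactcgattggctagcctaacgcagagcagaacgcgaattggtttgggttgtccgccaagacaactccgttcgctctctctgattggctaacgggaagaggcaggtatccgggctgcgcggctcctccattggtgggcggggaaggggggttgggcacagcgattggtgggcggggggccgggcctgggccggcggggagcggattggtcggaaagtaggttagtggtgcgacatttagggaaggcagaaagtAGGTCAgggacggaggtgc
Nr1d2: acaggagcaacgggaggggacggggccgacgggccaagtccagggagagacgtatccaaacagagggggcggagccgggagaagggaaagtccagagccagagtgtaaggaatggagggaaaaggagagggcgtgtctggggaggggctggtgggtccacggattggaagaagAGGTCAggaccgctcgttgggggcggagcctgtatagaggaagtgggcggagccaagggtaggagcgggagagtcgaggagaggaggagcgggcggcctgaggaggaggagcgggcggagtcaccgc
Tspan4: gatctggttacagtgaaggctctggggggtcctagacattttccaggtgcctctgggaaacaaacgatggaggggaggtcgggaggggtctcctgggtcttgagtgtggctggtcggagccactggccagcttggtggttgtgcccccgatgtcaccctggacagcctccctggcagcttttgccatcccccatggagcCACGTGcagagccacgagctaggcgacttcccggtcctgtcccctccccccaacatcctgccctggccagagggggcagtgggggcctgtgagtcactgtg
Per3 held 2 D-boxes, which began at positions -205 and -158, counted from the start with the first transcribed base as 1. A D-box, searched as TTATGTAA or TTACGTAA on both strands, occurred in 1.06% of 27025 RefSeq promoter windows. The core motif began at position -77 in Nr1d2 and at position 32 in Arntl, and occurred in 16.0% of windows. The E-box of Tspan4 began at position -51, and 7.24% of windows held one. CACGTG was not found in the windows of the other 6 genes with an entry. These are matches of letters, and binding was not measured.

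Tspan4 (ENSMUSG00000025511, chromosome 7, start 141475240, end 141493427, plus strand), a tetraspanin membrane protein gene that oscillates in many organs, measured 38.3, 61.4, 32.5, 33.1 and 45.6 FPKM at ZT0 and 96.0, 88.0, 109, 112 and 115 FPKM at ZT14. Night libraries clustered closely, above all dawn libraries. Tspan4 rose by 1.32 ± 0.20 (adjusted p = 0.00155). Chid1 overlaps it on the opposite strand, with means of 28.4 and 34.6 FPKM. The sources used here do not state whether counting used strand. Another list held 10 genes known to be rhythmic across mouse organs, which include clock genes, Tspan4 and Tsc22d3. Of these, 6 were called higher and 1 lower, with a median of 1.47, where 0.0597% of all genes were called. The list was chosen with earlier results of these data known. Its calls are genes already counted among those past the threshold, so it adds no separate result. The 3 without a call were Per1, Nr1d1 and Usp2, a deubiquitinase gene with a difference of 1.54 ± 0.42 (adjusted p = 0.253). Of 11 clock-controlled outputs tested, Tspan4 was the single call, and 4 were higher at p below 0.05 before adjustment (4.31% of all genes). These included Wee1, a kinase gene that delays entry into mitosis, with 11.4, 5.70, 10.8, 5.91 and 1.76 FPKM at ZT0 and 20.7, 12.8, 20.9, 12.3 and 11.8 FPKM at ZT14 and no overlap (difference 1.18 ± 0.35, adjusted p = 0.306). The median of the outputs was 0.22, and 0.02 without ZT14 replicate 3.

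Glucocorticoid-responsive genes had 1 call. Tsc22d3 (ENSMUSG00000031431, chromosome X, start 140539528, end 140600659, minus strand), which encodes the glucocorticoid-induced leucine zipper GILZ, measured 31.4, 39.6, 39.2, 39.4 and 35.5 FPKM at ZT0 and 85.0, 118, 104, 117 and 106 FPKM at ZT14. Both groups were tight and far apart. Tsc22d3 rose by 1.49 ± 0.25 (adjusted p = 0.00655). In a fit to the 10 libraries alone, it was the 1 gene that passed (adjusted p = 0.017). Of the 22 genes of this list, 9 were higher and none lower at p below 0.05 before adjustment, against 4.31% higher over all genes. The clock gene Per1 was among the higher ones, and the median of the list was 0.42. Differences were above 0 for 18 members and below 0 for 4, down to -1.48. Zbtb16, a zinc finger transcription factor gene induced by glucocorticoids, measured 0.663, 3.08, 2.24, 2.12 and 0.808 FPKM at ZT0 and 6.49, 11.5, 15.1, 4.73 and 3.96 FPKM at ZT14. Its groups did not overlap, and its difference of 1.69 ± 0.34 missed the threshold narrowly (adjusted p = 0.0505). Sgk1, an ion transport kinase gene, differed by 0.60 ± 0.15 (adjusted p = 0.191) without overlap, and Fkbp5, a chaperone gene of the receptor, by 0.85 ± 0.36 (adjusted p = 0.435), both named after their values were seen. Corticosterone was not measured.

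Outside these groups, Prosc (ENSMUSG00000031485, chromosome 8, start 27042555, end 27056132, plus strand), which encodes a pyridoxal phosphate-binding protein, measured 35.1, 37.0, 23.0, 45.7 and 25.0 FPKM at ZT0 and 103, 72.2, 337, 87.3 and 104 FPKM at ZT14. One night library, replicate 3, stood far above the others, but all 5 exceeded the dawn samples. Prosc rose by 1.85 ± 0.32 (adjusted p = 0.00727), and by 1.47 ± 0.26 without that library (adjusted p = 0.0155). Its call was lost without ZT0 replicate 3 (adjusted p = 0.0503). The antisense gene Proscos overlaps it, at means of 0.736 and 0.234 FPKM.

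The secreted factor gene Angptl7 (ENSMUSG00000028989, chromosome 4, start 148495183, end 148500460, minus strand), an angiopoietin-like gene known from cornea and trabecular meshwork, measured 25.5, 37.3, 20.1, 32.3 and 24.4 FPKM at ZT0 and 46.4, 137, 143, 169.7 and 90.0 FPKM at ZT14. Replicate 1 was the lowest night sample and still above the dawn samples. Angptl7 rose by 1.93 ± 0.37 (adjusted p = 0.0267), but the call was lost without ZT0 replicate 1, 3 or 5 and without ZT14 replicate 2, 3 or 4, with adjusted p from 0.0618 (without ZT0 replicate 5) to 0.115 (without ZT0 replicate 3). Mtor overlaps Angptl7 on the opposite strand, with means of 14.0 and 11.5 FPKM. Of the 17 secreted factor genes, 8 were higher and none lower at p below 0.05 before adjustment (median 0.43), against 4.31% higher over all genes. Ctgf, a matricellular growth factor gene and a YAP target, measured 87.1, 186, 114, 106 and 90.2 FPKM at ZT0 and 215, 325, 341, 404 and 371 FPKM at ZT14. It did not overlap between the groups and differed by 1.53 ± 0.34 (adjusted p = 0.0777). Pgf, a placental growth factor gene, differed by 0.89 ± 0.32 (adjusted p = 0.375). Markers of stroma had a median of 0.47 and summed to 1323 to 2162 FPKM at ZT0 and 1588 to 3086 FPKM at ZT14. With 5 tissue marker scores as terms, the median of the secreted list was 0.21, and Angptl7 differed by 1.26 ± 0.27 (adjusted p = 0.131).

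Genes of mitosis stood lower at ZT14. Pbk (ENSMUSG00000022033, chromosome 14, start 65805837, end 65817822, plus strand), a mitotic kinase gene, measured 10.6, 10.3, 19.8, 18.6 and 7.63 FPKM at ZT0 and 1.17, 0, 0, 2.34 and 4.93 FPKM at ZT14. All night values were below all dawn values, and 2 were listed at 0. Pbk fell by 2.68 ± 0.51 (adjusted p = 0.0269). The call was lost without ZT0 replicate 1, 3 or 4 and without ZT14 replicate 2 or 3, with adjusted p from 0.0628 (without ZT0 replicate 1) to 0.12. Without ZT14 replicate 3 it fell by 2.41 ± 0.53 (adjusted p = 0.12). Of the 28 mitosis genes, 27 had differences below 0, with a median of -1.43. At p below 0.05 before adjustment 20 were lower (6.11% of all genes), and 4 lay wholly below ZT0 (0.627% of all genes). Without ZT14 replicate 3, 17 were lower and the median was -1.27. Ube2c, which encodes an E2 enzyme of the anaphase-promoting complex, measured 25.2, 31.7, 25.6, 16.8 and 11.3 FPKM at ZT0 and 4.16, 0.0243, 0, 6.00 and 4.83 FPKM at ZT14, a difference of -2.90 ± 0.62 (adjusted p = 0.067). Plk1, a polo-like kinase gene, measured 11.7, 3.24, 10.0, 8.43 and 5.82 FPKM at ZT0 and 1.81, 4.35, 0, 1.17 and 0 FPKM at ZT14. Its groups overlapped, and the difference was -2.04 ± 0.44 (adjusted p = 0.068).

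Markers of surface epithelium moved in the same direction as the mitosis genes. All 18 had differences below 0, with a median of -0.94 and 6 at p below 0.05 before adjustment (6.11% of all genes). Without ZT14 replicate 3, 17 of 18 were below 0, the median was -0.68 and 0 were lower at p below 0.05 before adjustment. The count was also 0 without ZT0 replicate 1, 2 without ZT0 replicate 3 or ZT14 replicate 5, and 9 without ZT14 replicate 2. Over all genes, the count in either direction moved too. It was 1745 with all libraries, 1036 without ZT14 replicate 3 and 2175 without ZT14 replicate 2. With 5 tissue marker scores as terms, surface epithelium among them, the median of the mitosis list was -1.04, 11 of its members were lower at p below 0.05 before adjustment, and Pbk was not called (adjusted p = 0.203). The 2 lists share 0 genes. Whether the amount of surface epithelium bears on the mitosis genes was not tested. In these samples, tissue mix and time of day cannot be told apart. Among markers of other tissues, the medians were -1.89 for lens, -0.44 for rods, -0.19 for cones, 0.49 for skeletal muscle, 0.56 for oligodendrocytes, 0.43 for melanocytes and Schwann cells, 0.37 for endothelium, 0.31 for mural cells, 0.29 for immune cells and 0.27 for blood. For skeletal muscle, oligodendrocytes and immune cells they were 0.11, 0.23 and 0.17 without ZT14 replicate 3. Over all fits without 1 library, the medians ran from -1.26 to 0.60 for rods, from -0.98 to 0.33 for cones, from -2.76 to -0.85 for lens and from 0.06 to 1.29 for oligodendrocytes, so the direction for both photoreceptor lists depended on the libraries kept. None of these lists held a called gene, and at p below 0.05 before adjustment they held at most 3 higher genes and 1 lower gene each.

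**Figure D4:**
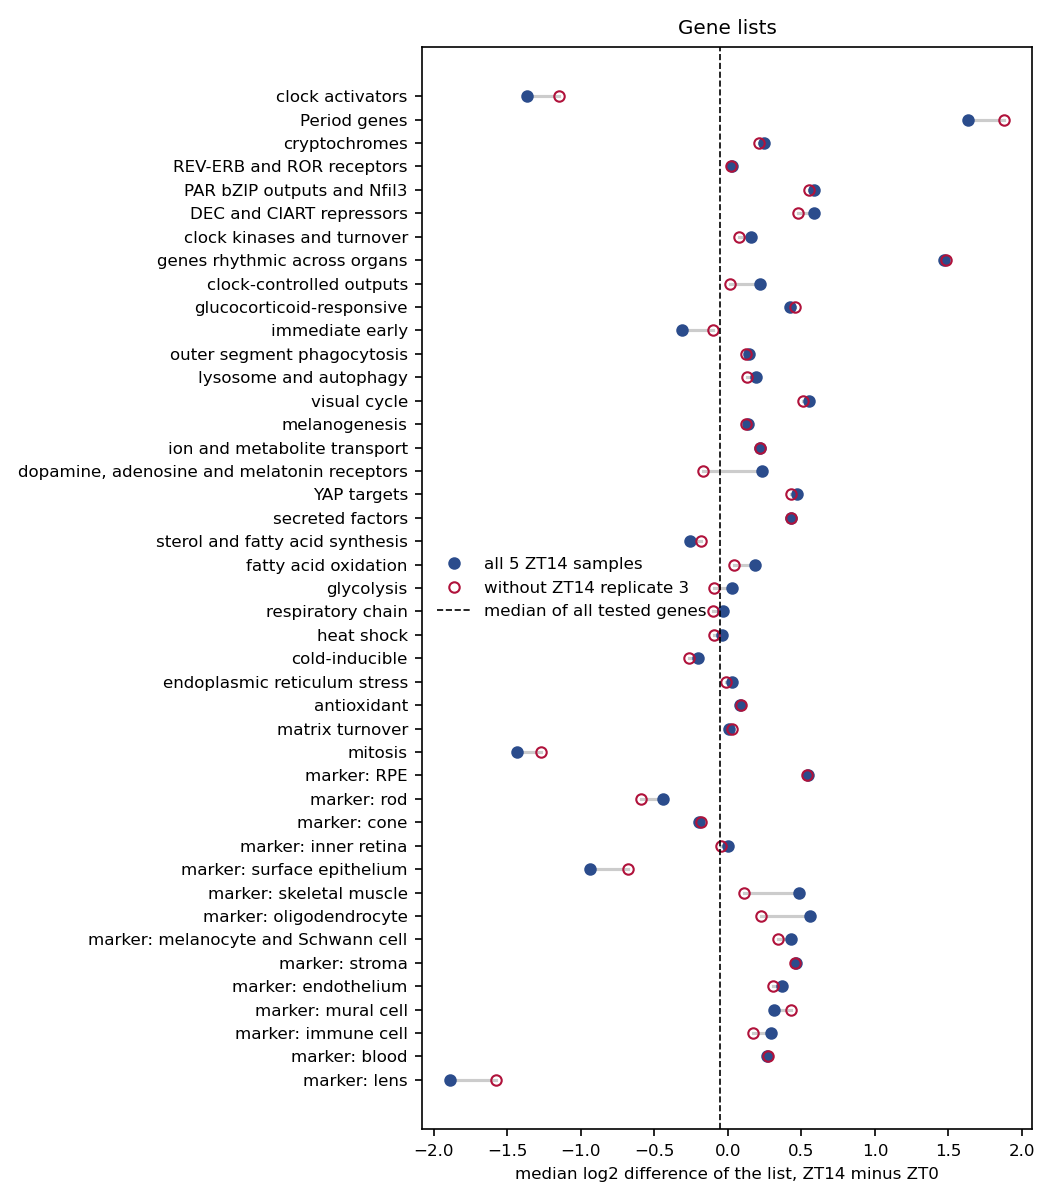
Median log2 difference of ZT14 minus ZT0 for each gene list, with all samples (filled) and without ZT14 replicate 3 (open), and the median of all tested genes as a dashed line. The Period genes and the genes rhythmic across organs lie farthest to the right, and the lens markers, mitosis genes, clock activators and surface epithelium markers farthest to the left.

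The lists of RPE function that follow held no call, and with 0.0597% of all genes called, a 0 in a short list is near the background. Of the 13 visual cycle genes, 7 were higher and none lower at p below 0.05 before adjustment, against 4.31% higher over all genes, and their median was 0.55. The count rested on single libraries: it was 3 without ZT14 replicate 3, ZT14 replicate 5 or ZT0 replicate 1, 4 without ZT0 replicate 5 or ZT14 replicate 4, and 9 without ZT0 replicate 2. It was also 3 with the 5 tissue marker scores as terms. Over the fits without 1 library the median ran from 0.35 (without ZT0 replicate 1) to 0.63. Lrat, the retinol acyltransferase gene, measured 112, 154, 128, 116 and 68.4 FPKM at ZT0 and 212, 168, 268, 266 and 289.6 FPKM at ZT14, without overlap (difference 1.07 ± 0.29, adjusted p = 0.26). Rpe65, the isomerohydrolase gene, measured 521, 953, 679, 655 and 492 FPKM at ZT0 and 1100.0, 1004, 1118, 1069 and 1346 FPKM at ZT14, also without overlap (difference 0.81 ± 0.29, adjusted p = 0.378). Each dawn mouse was thus below each night mouse for both enzymes, although neither passed over all genes. The RPE markers moved alike: all 12 had differences above 0 with a median of 0.54, and 7 of them belong to both lists. With the RPE marker score as a term, a choice made after the values were seen, the visual cycle median was -0.06. Because 7 visual cycle genes are part of that score, a median near 0 was partly built in and is no test.

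For phagocytosis of outer segments, 4 of 22 genes were higher and none lower at p below 0.05 before adjustment, with a median of 0.15. Over all genes, 4.31% were higher. Axl, a receptor tyrosine kinase gene related to Mertk, measured 83.3, 66.6, 84.7, 44.1 and 27.1 FPKM at ZT0 and 135, 100.2, 227, 69.2 and 103 FPKM at ZT14 (difference 1.04 ± 0.30, adjusted p = 0.306). Itgb5 and Itgav, which encode the integrin that binds outer segments, differed by 1.00 ± 0.34 and 0.86 ± 0.29. For all 3 the highest value was that of ZT14 replicate 3, and the groups overlapped. Of 26 lysosome and autophagy genes, 2 were higher at p below 0.05 before adjustment (median 0.19), against 4.31% of all genes. The count was 1 to 3 over the fits without 1 library. The autophagy receptor gene Sqstm1 measured 310.2, 221, 290.1, 285 and 245 FPKM at ZT0 and 364, 364, 506, 374 and 386 FPKM at ZT14, without overlap (difference 0.56 ± 0.18, adjusted p = 0.34).

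Of 22 transport genes, 3 were higher at p below 0.05 before adjustment, against 4.31% of all genes. The count was 1 without ZT14 replicate 3 or ZT0 replicate 4, but 6 without ZT0 replicate 2 or ZT14 replicate 1. Car14, a carbonic anhydrase gene, measured 138, 224, 174, 150.1 and 126 FPKM at ZT0 and 259, 224, 275, 294 and 315 FPKM at ZT14 (difference 0.77 ± 0.18, adjusted p = 0.127). Slc16a8, a lactate transporter gene of the RPE, differed by 0.57 ± 0.25 and Kcnj13, a potassium channel gene, by 0.97 ± 0.43. None of the 16 melanogenesis genes had p below 0.05 before adjustment (median 0.13). Of 9 tested receptors for dopamine, adenosine and melatonin, Adora1 had the smallest p, with a difference of 0.84 ± 0.32. The melatonin receptor genes Mtnr1a and Mtnr1b were listed at 0 in all 10 libraries. So was Junb of the immediate early list, and whether such zeros are failed estimates was not tested. Among 12 YAP targets, 3 were higher and 1 lower at p below 0.05 before adjustment (4.31% and 6.11% of all genes). The counts were 4 and 0 without ZT14 replicate 3. Without ZT0 replicate 2 or ZT14 replicate 5, 5 were higher.

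Metabolic and stress lists had no call. At p below 0.05 before adjustment, 4.31% of all genes were higher and 6.11% lower. Of 26 genes for sterol and fatty acid synthesis, 1 was higher and 4 lower at p below 0.05 before adjustment (median -0.25). The lower genes numbered 2 without ZT14 replicate 3 or ZT0 replicate 1 and 8 without ZT14 replicate 2, and the median was -0.42 without ZT0 replicate 5. Mvd, which encodes an enzyme of the mevalonate pathway, measured 9.12, 12.6, 19.2, 10.2 and 21.3 FPKM at ZT0 and 3.30, 9.26, 0.121, 5.21 and 5.44 FPKM at ZT14 (difference -1.69 ± 0.45, adjusted p = 0.225), with its lowest value in ZT14 replicate 3. With the 5 tissue marker scores the median of that list was 0.03. The medians of the lists for fatty acid oxidation, glycolysis, respiratory chain, heat shock, endoplasmic reticulum stress and antioxidants lay between -0.04 and 0.19, each with at most 2 genes in either direction at p below 0.05 before adjustment. The same medians lay between -0.10 and 0.09 without ZT14 replicate 3. Immediate early genes had a median of -0.31 (-0.10 without ZT14 replicate 3) and cold-inducible genes of -0.20. Their members with the smallest p were Jun, a transcription factor gene, with -0.73 ± 0.26, and Srsf5, a splicing factor gene, with -0.36 ± 0.15. The medians of 0.03 for glycolysis and for endoplasmic reticulum stress were below 0 after median-ratio rescaling. Matrix turnover had a median of 0.01, with 4 genes higher (2 without ZT0 replicate 1 or 5) and 1 lower, the protease gene Mmp14 (-0.62 ± 0.18, adjusted p = 0.308).

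The genes next in order of p, chosen after their values were seen, were Fmo1, Zbtb16, Ift172, Trex1, Prg4 and Ctxn3. Fmo1, a flavin-containing monooxygenase gene, measured 39.4, 42.0, 31.1, 32.9 and 21.2 FPKM at ZT0 and 77.9, 90.0, 62.4, 159 and 118 FPKM at ZT14. Its groups were apart, the difference was 1.54 ± 0.31 (adjusted p = 0.0505), and it passed without ZT14 replicate 3 (adjusted p = 0.0342). Ift172, a ciliary transport gene, differed by 1.60 ± 0.33 (adjusted p = 0.0546) without overlap. Trex1, an exonuclease gene, measured 21.9, 21.6, 25.4, 7.77 and 15.5 FPKM at ZT0 and 4.68, 4.79, 0, 6.51 and 1.73 FPKM at ZT14, also without overlap (difference -2.30 ± 0.48, adjusted p = 0.0546). Prg4, the lubricin gene, measured 0, 4.59, 0, 2.48 and 0.897 FPKM at ZT0 and 4.01, 16.7, 36.0, 5.66 and 25.9 FPKM at ZT14, with the largest values in ZT14 replicates 3 and 5. Prg4 differed by 2.79 ± 0.59 with overlap and Ctxn3 by 1.45 ± 0.31 without (both adjusted p = 0.0645). Atrip overlaps Trex1 on the same strand, with means of 7.98 FPKM at ZT0 and 10.1 FPKM at ZT14. Tpr overlaps Prg4 on the opposite strand, with means of 102 and 98.5 FPKM. The assignment of reads lying on both genes of a pair is uncertain.

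Set among the 6 time points, every called gene except Per3 had its highest or its lowest mean at ZT0 or ZT14, which describes where the values lie and is no second test. Arntl was highest at ZT0 by mean and ranged from 9.79 to 16.2 FPKM at ZT19 and from 1.37 to 4.05 FPKM at ZT9, so ZT9 and ZT14 overlapped at its trough. Nr1d2 and Dbp were highest at ZT9, with 57.1 ± 4.87 and 245 ± 24.4 FPKM (mean ± SD, n = 5), and lowest at ZT0. Dbp at ZT14 (124 ± 37.9 FPKM) was thus already down from its highest mean. Per2 at ZT14 (50.2 ± 46.0 FPKM) lay above ZT9 (18.0 ± 19.4) within a wide spread, and at 3.24 ± 1.81 FPKM at ZT19 it was back near the ZT0 level of 1.91 ± 0.761 FPKM. Nr1d1, without a call here, was at 71.4 ± 8.23 FPKM at ZT9, far above its levels at ZT0 (20.3 ± 5.39) and ZT14 (23.8 ± 8.20).

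Tspan4, Prosc and Angptl7 had their highest mean at ZT14 and their lowest at ZT0. Tspan4 was at 95.7 ± 25.6 FPKM at ZT9 and 104 ± 11.6 FPKM at ZT14, which do not differ beyond their spread. Angptl7 was at 117 ± 48.9 FPKM at ZT14 and 91.2 ± 38.3 FPKM at ZT19, again within the spread. Tsc22d3 was highest at ZT14 and lowest at ZT2 (32.0 ± 7.71 FPKM), close to its ZT0 level of 37.0 ± 3.58 FPKM. Pbk was highest at ZT0, ranged from 3.20 to 14.8 FPKM at ZT2, and was listed at 0 in all 5 libraries at ZT19.

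**Figure D5:**
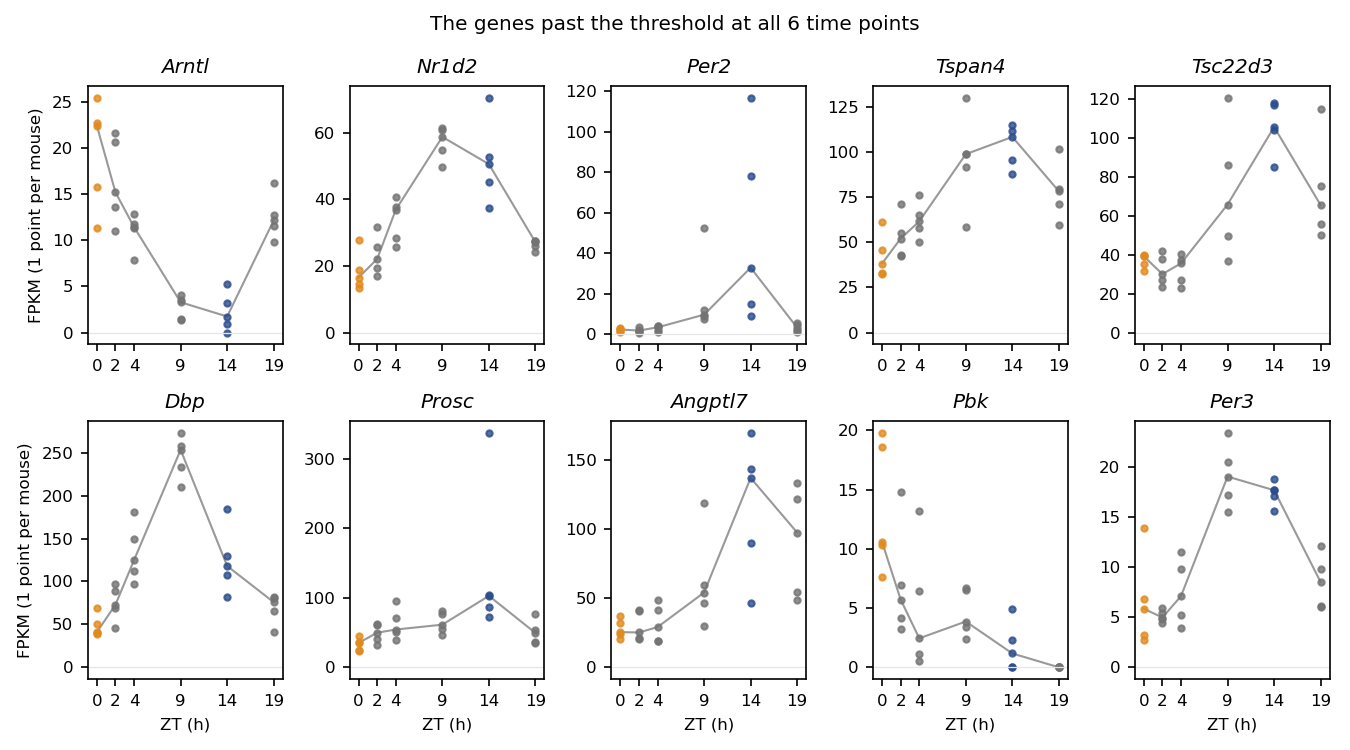
FPKM of the 10 genes past the threshold at each of the 6 time points, 1 point per mouse, with ZT0 in orange, ZT14 in blue and a line through the medians. Arntl and Pbk are highest at ZT0, while Nr1d2, Dbp and Per3 are already high at ZT9 and the others are highest at ZT14.

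The calls rest on a spread estimated from all 30 libraries. With the 10 libraries of ZT0 and ZT14 alone the differences were the same and 1 gene passed, Tsc22d3, with 1131 genes at p below 0.05 before adjustment. There the adjusted p was 0.181 for Arntl and for Nr1d2 and 0.183 for Per2. With the 5 tissue marker scores as terms, Arntl, Nr1d2 and Per2 remained called and the other 7 kept their direction. The difference was then 1.07 for Tspan4 (adjusted p = 0.0694), 1.13 for Tsc22d3 (adjusted p = 0.082), 1.25 for Dbp (adjusted p = 0.0923), 1.58 for Prosc (adjusted p = 0.0899) and 1.58 for Per3 (adjusted p = 0.105).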

How the data were processed

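RNA-seq values came from 30 mouse RPE samples at 6 time points, 5 mice each, of which the ZT0 and ZT14 samples were compared. The authors deposited FPKM values, already scaled, for 51904 Ensembl IDs in each sample. Tools listed in the submitters' processing notes are STAR, Cufflinks and DESeq2, with the build mm10 and no versions. The table writes decimal commas, so its unit could be checked only after conversion. Raw counts were not analysed here. Reads behind each library were estimated from the steps between low FPKM values. Positions are from GENCODE M21 (GRCm38, the assembly of mm10), which held 51625 of the IDs.

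Genes with at least 1 FPKM in at least 5 samples were kept, and log2(FPKM + 1) was fitted with limma 3.58.1 in R 4.3.3, with 1 mean per time point over all 30 samples and a variance trend. Adding 1 understates differences of low genes. Two-sided p-values were adjusted by Benjamini-Hochberg over all tested genes, threshold 0.05. Fits were tested on simulated data. Every called gene and clock gene is named, and of each other list up to 3 genes with the smallest p, except some genes that were tested and counted but are not reported here. The comparison, the lists and the named genes were chosen with earlier results of these data known, so lists are described by counts and medians and not tested. How the authors treated strand and shared reads is not given in the sources used here.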

Additional observations from a re-analysis of the deposited data

Results flagged for a closer look

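Of 256 groups of 5 samples examined for 128 named genes, 15 held 1 sample far from the other 4, where chance gives about 1 group in 20. Of these, 7 were in ZT14 replicate 3: Prosc at 337 FPKM (others 72.2 to 104), Sqstm1 at 506 (364 to 386), Ldhb, a lactate dehydrogenase gene, at 703 (369 to 442), Ciart at 0.932 (7.10 to 11.8), Pgf at 11.5 (23.7 to 28.8), Cox6c, a respiratory chain gene, at 169 (299 to 360) and the lens gene Bfsp2 at 0 (15.1 to 24.6).

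The ZT14 replicate 1 sample stood apart for Clock, at 19.8 FPKM (others 11.8 to 13.7), for the rod gene Rom1, at 198 (69.1 to 92.4), and for the inner retina gene Slc32a1, at 1.80 where the others were listed at 0. The lens gene Crybb3 was at 13.4 FPKM in ZT14 replicate 2, where the others were listed at 0, and the cold-inducible gene Cirbp at 56.3 in ZT14 replicate 4 (88.4 to 104).

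At ZT0, replicate 2 stood apart for Kcnj13, at 278 FPKM (125 to 154), and for the globin gene Hbb-bt, at 93.1 (22.1 to 33.5). Replicate 3 had the lens gene Bfsp1 at 10.6 (1.08 to 2.00).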

How the results depend on the processing

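No paired analysis was possible because the labels give no replicate numbers, and each mouse gave 1 sample.

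The 10 calls became 8 with a pseudocount of 0.1 (7 higher, 1 lower), 18 with 5 (13 and 5), 8 without a filter, 13 with at least 5 FPKM, 9 with median-ratio rescaling and 9 with quantile normalization (8 and 1). They became 11 without the variance trend, 12 with sample weights, 11 with zeros of abundant genes as missing, 25 with eye as a term (14 and 11), 18 with animal number range (15 and 3), and 3 with 5 tissue marker scores (2 and 1: Per2, Nr1d2 and Arntl). The ZT0 and ZT14 samples alone gave 1 call (1 and 0, with 1131 genes at an unadjusted p below 0.05), as they did without ZT14 replicate 3 (1 and 0, 1095 unadjusted). The RPE marker score gave 5 (4 and 1). The last 2 were added after the data were seen. Leaving out 1 library gave 6 to 18 calls, 5 to 14 higher and 1 to 8 lower, with 6 without ZT0 replicate 3, 18 without ZT0 replicate 2 or ZT14 replicate 1, 17 without ZT14 replicate 4 and 8 without ZT14 replicate 3. The last lost Angptl7, Pbk and Per3 and gained Fmo1. The causes of these changes were not tested.

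Over 25 alternatives, Tsc22d3 was called in 24, Arntl, Nr1d2 and Per2 in 23, Tspan4 in 22, Dbp in 21, Prosc in 20, Angptl7 in 14, Pbk in 13 and Per3 in 9, each keeping its direction.

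No reversed value passed the threshold. Krt12, Mal and Mylpf are markers averaged into the 5 tissue scores, so adjusting for those scores takes out part of their own difference. With the 5 scores the log2 difference was 0.23 for Hlf, 0.012 for Csnk1e, 0.081 for Pde6h, 0.23 for Mal, -0.019 for Rgs5, 0.44 for Krt12 and -0.021 for Mylpf. With the RPE score it was 0.11 for Csnk1e, -0.26 for Fbxl21, 0.069 for Rorb, -0.15 for Mlph, 0.18 for Rcvrn, 0.18 for Rom1, 0.50 for Pde6a, 1.05 for Pde6h, 0.20 for Mal, -0.046 for Rgs5 and 0.28 for Krt12. It was 0.16 for Rorb with a pseudocount of 0.1, 0.071 with quantile normalization and 0.089 with eye as a term. Over the fits without 1 library, it ran from -0.056 to 0.40 for Fbxl21, from -0.53 to 0.12 for Hlf, from -0.50 to 0.19 for Cry1, from -0.48 to 0.41 for Rorb, from -1.32 to 0.33 for Pde6h, from -0.83 to 0.15 for Rom1, from -1.46 to 0.069 for Pde6a and from -0.37 to 0.048 for Rora. Listed zeros and a median standard error of 0.39 limit what could be detected.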
